A study of Mus musculus with 6 samples.

Results

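The genes described here are 32 mouse genes of DNA repair and of the damage checkpoint, measured in ovarian surface epithelial (OSE) cells with and without the R172H mutation of the p53 gene Trp53. They were taken by name in 7 classes: 10 genes of homologous recombination, 4 of the Fanconi pathway, 3 of mismatch repair, 4 of end joining, 4 checkpoint kinases, 5 of strand-break and excision repair, and 2 subunits of a break sensor. Each gene was read from the probe set with the highest mean log2 signal among those that name that gene alone. By this rule 31 of the 32 genes had a value, out of 18194 genes in all, and Xrcc2 was not analysed here. Of these, 30 passed a filter on low mean signal, out of 10916 genes tested, and Bard1 did not.

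The cells, which the labels call P/K OSE, were tumour cells from ovary that were released with trypsin, plated and not passaged, from mice of mixed background strain. There were 3 groups of 2 arrays: cells with wild-type p53 (mice of 9 weeks), heterozygous cells that carried wild-type p53 and Trp53 R172H (9 weeks for array 1 and 12 weeks for array 2), and homozygous Trp53 R172H cells (4 weeks). The labels do not spell out the P/K alteration that all 3 groups share. A source label of the homozygous arrays names Trp63, and the titles, which name Trp53, were followed. Every homozygous array was from a younger mouse than every other array, so genotype and age cannot be told apart. The 2 heterozygous arrays differ in the age given, so their difference holds age as well. For the wild-type and homozygous pairs the labels do not say that the 2 arrays came from different mice. The p-values thus measure the spread between these arrays. A point mutation is not checked by a signal level, and the signal of Trp53 was not analysed here.

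Homologous recombination repairs a broken chromosome by copying from the sister chromatid, and it works in cells that have replicated their DNA. The Fanconi pathway unhooks crosslinks between the strands during replication and hands the break to recombination. Mismatch repair corrects copying errors, end joining ligates broken ends in any phase of the cell cycle, and the kinases Atm and Atr with their effectors Chek2 and Chek1 halt the cycle after damage. Mki67, the proliferation antigen Ki-67, and Top2a, the topoisomerase that untangles sister chromatids, are made mainly by cycling cells. They served here as the reference for mitotic genes.

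The arrays differed in ways that touch these genes. Across all tested genes the closest arrays were wild-type array 2 and heterozygous array 1, with an SD of log2 differences of 0.31, and the 2 homozygous arrays differed from each other with an SD of 1.30. Median signals ran from 41.1 to 60.6 by array, and the log2 difference between the 3′ and 5′ actin probe sets was 0.59 and 0.39 in the homozygous arrays against 0.66 to 0.96 in the others. The labelled cell type was checked with 12 markers of OSE, all of them above background in the wild-type and heterozygous arrays. Their summed signal was 130971 to 185352 there and 62310 and 52431 in the homozygous arrays. In the homozygous arrays Krt7, an epithelial keratin, was at 60.5 and 1729 against 11838 to 17717 elsewhere. Krt18, another keratin of the list, was at 25436 and 5623 against 6247 to 12233. It was the 1 marker of the 12 with a homozygous minus wild-type difference above 0. limma called 2 of the 12 lower in homozygous than in wild-type arrays, against 246 of all 10916 tested genes. The summed signal of 10 macrophage markers was 2866 and 2540 in the wild-type arrays and 5145 and 5456 in the heterozygous arrays. In the homozygous arrays it was 496 and 709. Markers of endothelium (8 genes) summed there to 1916 and 2765, against 9102 to 10946 in the others. Those of granulosa and theca cells (9 genes) summed to 288 and 1961 against 3420 to 8338. The endothelial sum was carried largely by Esam, at 6836 to 8168 in the wild-type and heterozygous arrays, where Pecam1 was at 3.48 to 26.9. In those arrays 1 to 5 of the 8 endothelial markers were under background, so the sum does not show that endothelial cells were present. The granulosa and theca sum was carried largely by Star and Inha, at 1588 to 4144 and 562 to 2322 in the same arrays. There 1 to 3 of the 9 markers were under background, so that sum alone does not show these cells either. Fibroblast and stroma markers (8 genes) summed to 32165 and 81521 against 42444 to 50427. The part of these cell types in the results below was not tested.

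Mki67 gave signals of 1246 and 4031 in the wild-type pair, 4352 and 966 in the heterozygous arrays, and 5271 and 6747 in the homozygous arrays. Top2a had 2053 and 5568, 5671 and 1887, and 12981 and 13450 in the same order. Both genes were low in wild-type array 1 and heterozygous array 2, intermediate in wild-type array 2 and heterozygous array 1, and highest in the homozygous arrays. The homozygous arrays thus did not overlap with the others. The homozygous minus wild-type difference was 1.41 ± 0.88 log2 units for Mki67 (limma SE, n = 2 arrays a group, adjusted p = 0.333) and 1.97 ± 0.69 for Top2a (adjusted p = 0.145). Neither passed the threshold of 0.05, and the 2 arrays of a pair differed by up to 2.17 log2 units for Mki67 and 1.59 for Top2a. In bulk cells such as these, a smaller share of cycling cells and less of the RNA per cell cannot be told apart.

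Upstream sequences are shown for the 2 mitotic genes and for 5 of the repair genes, to set genes that had the mitotic pattern beside genes that had it less. They are the 220 bases before the start of transcription, from RefSeq on build GRCm38.p6, read 5′ to 3′ on the strand of the gene. In Mki67 and Top2a capitals mark the letters TTTGAA of the cell cycle homology region (CHR) or their reverse complement, and in the repair genes they mark letters of E2F sites (TTTCCCGC, TTTGGCGC, TTTGCCGC or TTTCGCGC, on either strand). Mki67 lies at chr7:135716380-135716599 (minus strand), Top2a at chr11:99024190-99024409 (minus strand), Blm at chr7:80534999-80535218 (minus strand), Rad51ap1 at chr6:126939588-126939807 (minus strand), Brca2 at chr5:150522401-150522620 (plus strand), Chek2 at chr5:110839763-110839982 (plus strand) and Msh3 at chr13:92355004-92355223 (minus strand).
Mki67: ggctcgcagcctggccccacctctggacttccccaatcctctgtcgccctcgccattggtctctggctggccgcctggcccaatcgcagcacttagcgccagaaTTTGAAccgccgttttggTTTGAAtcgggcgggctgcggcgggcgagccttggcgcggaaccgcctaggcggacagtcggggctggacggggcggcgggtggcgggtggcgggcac
Top2a: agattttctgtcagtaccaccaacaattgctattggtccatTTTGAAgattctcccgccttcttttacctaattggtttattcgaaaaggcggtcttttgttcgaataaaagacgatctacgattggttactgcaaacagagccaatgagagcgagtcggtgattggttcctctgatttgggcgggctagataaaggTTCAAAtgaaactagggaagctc
Blm: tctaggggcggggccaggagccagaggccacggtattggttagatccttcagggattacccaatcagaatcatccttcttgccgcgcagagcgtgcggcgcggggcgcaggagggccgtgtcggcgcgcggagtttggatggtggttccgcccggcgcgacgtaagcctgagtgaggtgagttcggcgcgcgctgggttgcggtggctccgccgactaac
Rad51ap1: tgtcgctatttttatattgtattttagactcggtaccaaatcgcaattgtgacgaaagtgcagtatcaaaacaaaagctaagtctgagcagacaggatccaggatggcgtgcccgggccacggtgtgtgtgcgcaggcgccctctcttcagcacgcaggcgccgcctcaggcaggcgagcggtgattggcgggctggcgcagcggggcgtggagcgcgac
Brca2: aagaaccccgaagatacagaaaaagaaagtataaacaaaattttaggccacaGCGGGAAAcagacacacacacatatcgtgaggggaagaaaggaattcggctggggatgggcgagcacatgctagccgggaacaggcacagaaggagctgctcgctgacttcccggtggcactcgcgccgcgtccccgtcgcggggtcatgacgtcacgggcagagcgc
Chek2: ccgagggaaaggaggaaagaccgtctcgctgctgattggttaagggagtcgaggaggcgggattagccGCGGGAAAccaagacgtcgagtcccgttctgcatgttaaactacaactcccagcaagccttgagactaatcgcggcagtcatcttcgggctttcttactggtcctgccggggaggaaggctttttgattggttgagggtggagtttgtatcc
Msh3: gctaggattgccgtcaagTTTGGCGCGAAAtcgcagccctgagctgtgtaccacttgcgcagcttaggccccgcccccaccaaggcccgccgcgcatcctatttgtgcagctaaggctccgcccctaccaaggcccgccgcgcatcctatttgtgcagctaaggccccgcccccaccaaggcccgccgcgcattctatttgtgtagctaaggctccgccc

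In Msh3 the capitals cover 2 overlapping matches on opposite strands, which begin 202 and 198 bases before the start. Promoters of 26 of the 32 genes were matched in the RefSeq table used here, each searched from 250 bases before the start to 50 after. Exo1, Rad54b, Xrcc2, Fancd2, Nbn and Rad50 had no match. Counts for the recombination and Fanconi genes thus cover 10 of 14, and those for mismatch repair, end joining and the kinases all 11. The E2F letters were found in 7 of the 26 (26.9%), against 2.6% of 27025 genes searched in the same way. They were in 2 of 10 genes of homologous recombination and the Fanconi pathway (Bard1 and Brca2), in 4 of 11 of mismatch repair, end joining and the kinases (Msh3, Msh6, Xrcc6 and Chek2), and in 1 of 5 of strand-break and excision repair (Lig1). The CHR letters stood in both mitotic genes but in 1 of 26 repair genes (3.85%, Bard1), against 20.2% of all genes. The CCAAT box, searched as CCAAT on both strands, was in 14 of 26 (53.8%) against 41.1%. Blm and Rad51ap1, whose signals were among the most like the mitotic pair, held none of the E2F or CHR letters in this window. A match of letters is a description and does not show a bound site.

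In the homozygous arrays the repair genes were, as a list, higher than in either other group, but no single gene passed the test. The list was chosen with earlier results of these data known, so its counts beside those of all genes are a description only. In a wider list of repair genes, given further below, 69 of 92 were above 0 for homozygous minus wild-type. All 31 had a homozygous minus wild-type difference above 0, with a median of 0.89 log2 units, against 45.4% above 0 and a median of -0.09 among all tested genes. All 31 were also above 0 for homozygous minus heterozygous, with a median of 0.97, against 45.7% and -0.08. For heterozygous minus wild-type 14 of 31 were above 0, with a median of -0.07, against 50.8% and 0.00. The homozygous contrasts share the homozygous arrays and so are not separate evidence. Both counts of 31 were the same after quantile normalization, with arrays centred on their medians and with signals raised to background. With all probe sets of a gene averaged, Fancc, Rad50 and Xrcc4 turned below 0 for homozygous minus wild-type and 28 of 31 stayed above.

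limma called none of the 30 tested repair genes in any contrast. In homozygous minus wild-type 0 of 30 passed an adjusted p of 0.05, against 2.67% of all tested genes, and 12 had an unadjusted p under 0.05 (40% against 28.9%). The lowest adjusted p was 0.0754, for Pms2. In homozygous minus heterozygous 0 of 30 passed, against 4.09% of all, and 12 had an unadjusted p under 0.05 (40% against 30.6%), with the lowest adjusted p of 0.0664 again for Pms2. In heterozygous minus wild-type 0 of 30 passed, against 0% of all, and 0 had an unadjusted p under 0.05, against 0.65%. Both homozygous arrays were above both wild-type arrays in 24 of the 30, against 27.4% of all genes, and above both heterozygous arrays in 25 of the 30, against 28.2%. Both heterozygous arrays were above both wild-type arrays in 2 of the 30, Parp2 and Lig3, against 13.2%. With homozygous array 2 left out, 3 genes passed in homozygous minus wild-type (Exo1, Xrcc5 and Xrcc6) and 6 in homozygous minus heterozygous (Exo1, Fanca, Lig4, Msh3, Xrcc5 and Xrcc6). That fit has 1 homozygous array, assumed to vary like the others, and it called 2663 and 2841 genes of the whole table.

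**Figure D1:**
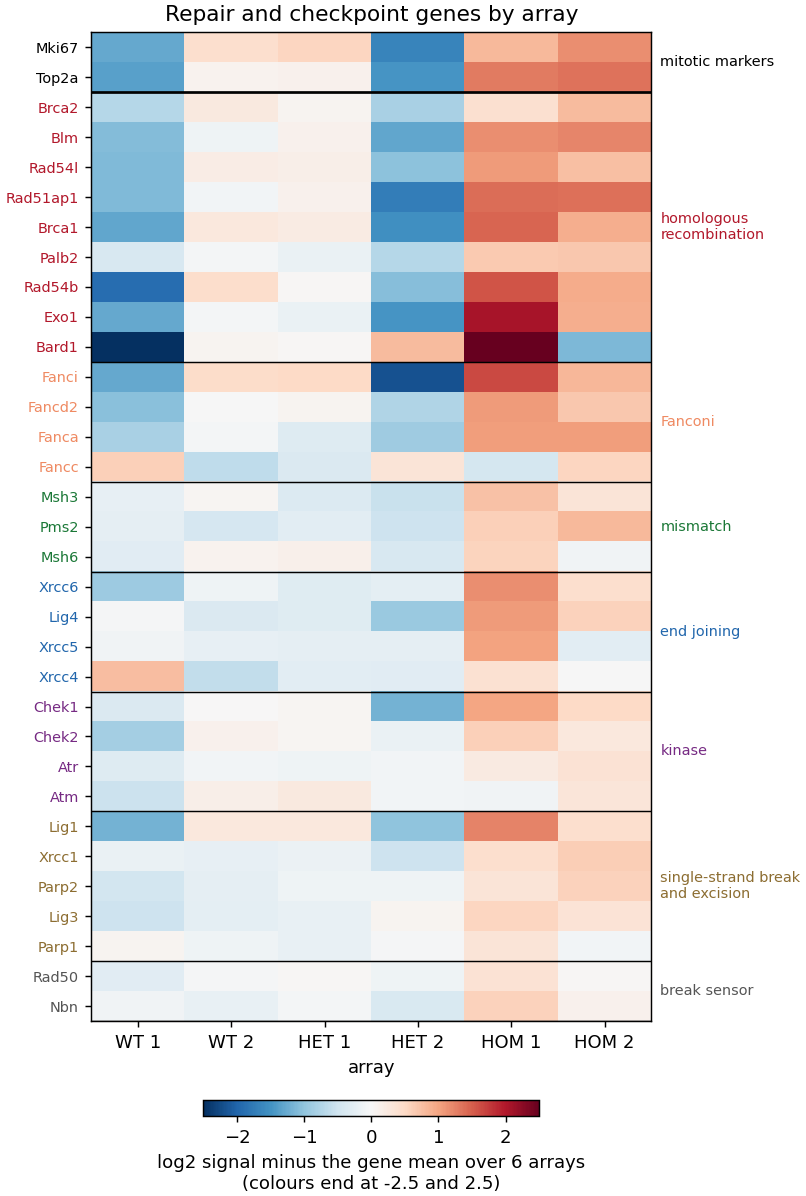
Log2 signal of Mki67, Top2a and the 31 repair genes (rows, grouped by class and ordered by likeness to the mitotic pair) in each of the 6 arrays (columns), as the difference from the mean of the gene over the arrays. Blue is below and red above that mean. Most genes of homologous recombination and the Fanconi pathway are blue in wild-type array 1 and heterozygous array 2 and red in both homozygous arrays, and the other classes are paler.

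The genes that direct and load the recombinase had the mitotic pattern over the arrays, except Bard1. Brca1, the tumour suppressor that directs breaks to recombination, gave signals of 285 and 838 in the wild-type pair, 811 and 242 in the heterozygous arrays, and 1930 and 1313 in the homozygous arrays. It was lowest in the same 2 arrays as Mki67, and the homozygous arrays were above all others. The differences were 1.70 ± 0.77 against wild-type (adjusted p = 0.213) and 1.85 ± 0.77 against heterozygous (adjusted p = 0.179). All 4 Brca1 probe sets were higher in the homozygous arrays than in wild-type. Brca2, which loads the recombinase on DNA, had 194 and 375, 330 and 181, and 417 and 550. Its groups were ordered like those of Brca1, on a smaller scale, with a homozygous minus wild-type difference of 0.83 ± 0.46 (adjusted p = 0.287), the smallest of its class. Palb2, the bridge between Brca1 and Brca2, had 187 and 241, 220 and 151, and 392 and 395. The 2 homozygous arrays nearly coincided, at 0.89 ± 0.29 above wild-type (adjusted p = 0.124). Bard1, the partner of Brca1, was below the background signal of 24.5 in 5 of 6 arrays (2.24 and 13.7, 13.2 and 22.5, 87.1 and 5.99) and was not tested.

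The genes that act on the recombination intermediates had the same pattern over the arrays. Rad51ap1, which stimulates strand invasion, gave signals of 448 and 920 in the wild-type pair, 1040 and 289 in the heterozygous pair, and 2532 and 2484 in the homozygous pair. Blm, the helicase that dissolves crossed strands, had 170 and 333, 388 and 147, and 804 and 837. In both genes the homozygous arrays agreed closely and stood above all others. The differences from wild-type were 1.97 ± 0.68 (adjusted p = 0.142) and 1.79 ± 0.57 (adjusted p = 0.122). Exo1, the exonuclease that resects the ends, had 212 and 498, 457 and 185, and 2140 and 956. It had the largest homozygous minus wild-type difference of its class, 2.14 ± 0.69 (adjusted p = 0.125), with homozygous array 1 well above array 2. The translocases Rad54l and Rad54b, which remodel the recombinase filament, were 1.36 ± 0.58 and 1.98 ± 0.85 above wild-type. Rad54l ranged from 201 to 496 and Rad54b from 35.7 to 181 in the wild-type and heterozygous arrays, below both homozygous arrays at 903 and 727 and at 396 and 253.

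Of the Fanconi genes 3 of 4 behaved alike. Fanci, which forms a clamp on DNA with Fancd2, gave signals of 73.1 and 246 in the wild-type pair, 252 and 39.7 in the heterozygous pair, and 564 and 319 in the homozygous pair. Its wild-type and heterozygous pairs were the most divided of the class, and the difference of 1.66 ± 1.04 from wild-type had an adjusted p of 0.333. Fancd2 had 95.1 and 193, 204 and 115, and 410 and 313, a difference of 1.40 ± 0.47 (adjusted p = 0.133). Fanca, of the core complex that ubiquitinates the clamp, had 166 and 282, 234 and 157, and 605 and 601. Its difference from wild-type was 1.48 ± 0.36 (adjusted p = 0.0837) and from heterozygous 1.65 ± 0.36 (adjusted p = 0.0673), the lowest adjusted p-values of the recombination and Fanconi genes. Fancc, of the same core complex, went another way, with 97.3 and 41.6, 50.3 and 81.1, and 47.9 and 93.6. Its groups overlapped and the homozygous minus wild-type difference was 0.07 ± 0.57 (adjusted p = 0.942).

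**Figure D2:**
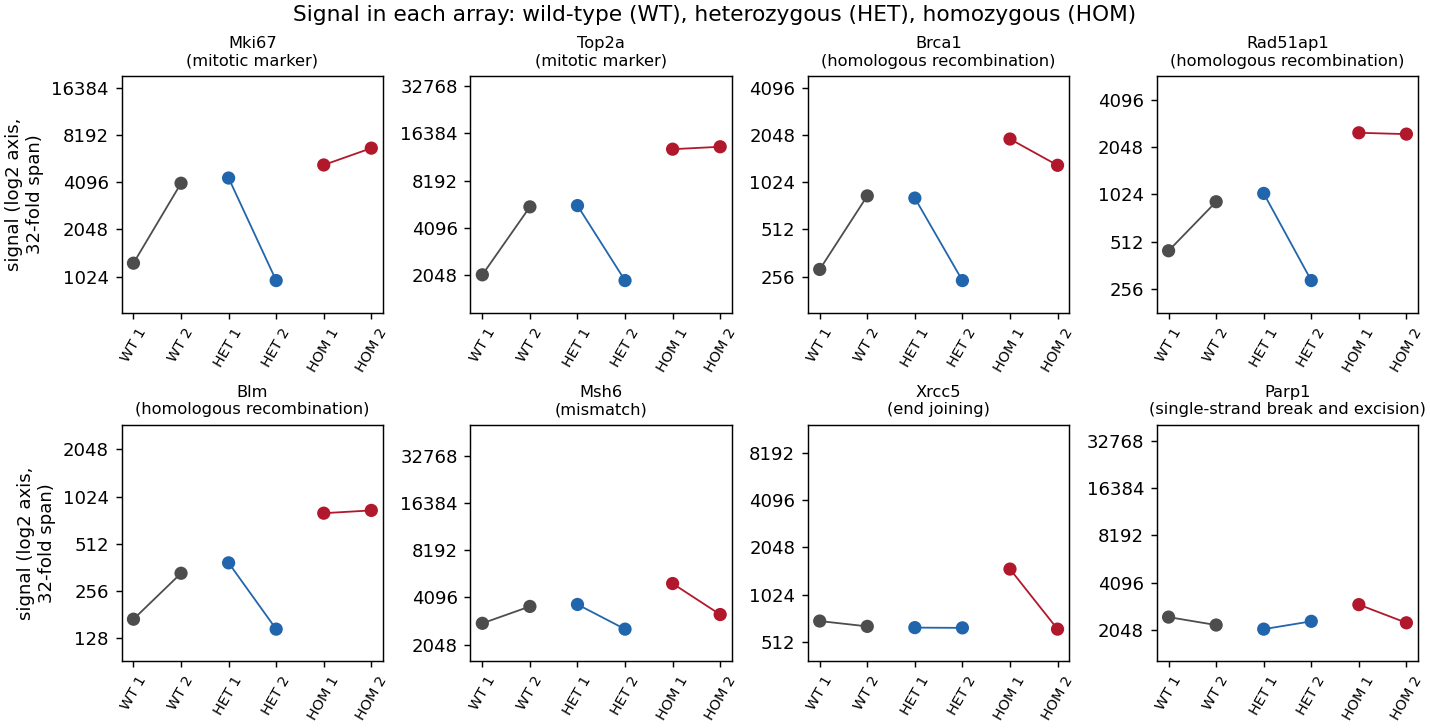
Signal of the mitotic genes Mki67 and Top2a and of 6 repair genes in each array, on a log2 axis that spans 32-fold in every panel. Each point is 1 array and lines join the 2 arrays of a group. Brca1, Rad51ap1 and Blm dip in wild-type array 1 and heterozygous array 2 as Mki67 and Top2a do. Msh6 has a smaller dip in the same arrays, and Xrcc5 and Parp1 stay nearly level over the wild-type and heterozygous arrays.

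The mismatch repair genes differed less within the wild-type and heterozygous pairs than most recombination genes, but not within the homozygous pair. Pms2, a subunit of the endonuclease that nicks the strand to be corrected, gave signals of 310 and 272 in the wild-type pair, 300 and 254 in the heterozygous pair, and 546 and 637 in the homozygous pair. The wild-type and heterozygous arrays lay close together and the homozygous arrays were above them, by 1.02 ± 0.24 (adjusted p = 0.0754) and 1.09 ± 0.24 (adjusted p = 0.0664). Msh3, which recognises larger loops, had 508 and 604, 463 and 400, and 972 and 733, a difference of 0.61 ± 0.26 from wild-type (adjusted p = 0.196). Msh6, which recognises base mismatches, had 2802 and 3590, 3696 and 2573, and 5024 and 3187. Homozygous array 2 of Msh6 was below wild-type array 2, and the difference was 0.34 ± 0.35 (adjusted p = 0.548).

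Of the end-joining genes, Xrcc6 and Lig4 had both homozygous arrays above all others, and Xrcc4 and Xrcc5 did not. Xrcc6, the Ku70 subunit of the end-binding ring, gave signals of 564 and 976 in the wild-type pair, 856 and 890 in the heterozygous pair, and 2353 and 1420 in the homozygous pair, a difference of 1.30 ± 0.39 (adjusted p = 0.114). Its partner Xrcc5, or Ku80, had 695 and 642, 631 and 629, and 1490 and 617. Only homozygous array 1 of Xrcc5 stood out, array 2 being the lowest of all 6, and the difference was 0.52 ± 0.44 (adjusted p = 0.466). Lig4, the ligase of this pathway, had 329 and 261, 273 and 176, and 708 and 503, a difference of 1.03 ± 0.34 (adjusted p = 0.128). Xrcc4, the scaffold of Lig4, had 531 and 205, 261 and 258, and 409 and 311. The wild-type arrays of Xrcc4 enclosed all others and the difference was 0.11 ± 0.49 (adjusted p = 0.895).

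Among the kinases Chek1 was nearest to the mitotic genes. Chek1, the effector of Atr at stalled forks, gave signals of 690 and 900 in the wild-type pair, 921 and 391 in the heterozygous pair, and 1766 and 1247 in the homozygous pair. The homozygous arrays were above all others, by 0.91 ± 0.48 against wild-type (adjusted p = 0.258) and 1.31 ± 0.48 against heterozygous (adjusted p = 0.142). Chek2, the effector of Atm at breaks, had 359 and 701, 674 and 578, and 987 and 778, a difference of 0.81 ± 0.38 from wild-type (adjusted p = 0.229). Atr had 489 and 585, 566 and 583, and 719 and 786, a difference of 0.49 ± 0.22 (adjusted p = 0.216). Atm had 285 and 463, 494 and 399, and 394 and 512. Homozygous array 1 of Atm lay among the others and array 2 was slightly above them all, with differences of 0.30 ± 0.33 from wild-type (adjusted p = 0.569) and 0.02 ± 0.33 from heterozygous (adjusted p = 0.980).

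Of the strand-break and excision genes, Lig1, the ligase that joins replication fragments, stood apart from the rest. It gave signals of 842 and 2305 in the wild-type pair, 2311 and 947 in the heterozygous pair, and 4520 and 2566 in the homozygous pair, a difference of 1.29 ± 0.68 (adjusted p = 0.264). Its dips were in the same arrays as those of Mki67. Lig3, the ligase bound by the scaffold Xrcc1, had 545 and 659, 687 and 823, and 1144 and 994, and Xrcc1 had 550 and 536, 552 and 429, and 818 and 945. Parp2, a polymerase of poly(ADP-ribose) at breaks, had 1190 and 1390, 1508 and 1507, and 2033 and 2428. In these 3 genes no dip was shared with Mki67 in both arrays, and the homozygous arrays were above all others, by 0.83 ± 0.24, 0.70 ± 0.24 and 0.79 ± 0.23 against wild-type (adjusted p = 0.109, 0.143 and 0.108). Parp1, the main polymerase of that kind, had 2472 and 2199, 2071 and 2322, and 2968 and 2272. Its groups overlapped, with a difference of 0.16 ± 0.25 (adjusted p = 0.702). The break sensor subunits Nbn and Rad50 were 0.48 ± 0.27 and 0.36 ± 0.25 above wild-type (adjusted p = 0.293 and 0.374). Nbn had 733 and 685, 754 and 598, and 1167 and 839, and Rad50 had 629 and 749, 784 and 706, and 980 and 785.

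Set side by side, the 13 measured genes of homologous recombination and the Fanconi pathway had a median homozygous minus wild-type difference of 1.66 log2 units, and the 11 of mismatch repair, end joining and the kinases 0.61. By class the medians were 1.79 for homologous recombination, 1.44 for the Fanconi genes, 0.61 for mismatch repair, 0.77 for end joining, 0.65 for the kinases, 0.79 for strand-break and excision repair and 0.42 for the break sensor. Homozygous minus heterozygous medians were 1.65 and 0.61 for the combined classes. Heterozygous minus wild-type medians were -0.14 and -0.07. Both homozygous arrays were above both wild-type arrays in 11 of 12 tested recombination and Fanconi genes and in 7 of 11 of the others, against the 27.4% of all genes.

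This gap between the classes rested largely on wild-type array 1 and heterozygous array 2. Wild-type array 2 exceeded array 1 by a median of 1.04 in the recombination and Fanconi genes (12 of 13 above 0) and of 0.26 in the mismatch, end-joining and kinase genes (7 of 11). Heterozygous array 1 (9 weeks) exceeded array 2 (12 weeks) by 1.08 (11 of 13) and 0.22 (9 of 11). The same differences had medians of 1.47 and 1.69 over 24 mitotic genes. With both low arrays left out, the median homozygous minus wild-type difference was 0.81 for recombination and Fanconi genes and 0.58 for the others, and homozygous minus heterozygous 0.84 and 0.60. By class the former was 0.81 for homologous recombination, 0.84 for Fanconi, 0.48 for mismatch, 0.85 for end joining and 0.34 for kinases. The latter was 0.97, 0.78, 0.865, 0.85 and 0.39 in that order. End joining was thus no longer below the Fanconi genes in either contrast. The homozygous minus wild-type contrast does not use heterozygous array 2. Leaving out wild-type array 1 alone thus gave, by construction, the same recombination and Fanconi median of 0.81. With wild-type array 2 left out it was 2.27. Without both low arrays 30 of 31 genes were still above 0 in both contrasts, the exception being Atm at -0.04 and -0.14. The wild-type and heterozygous groups then had 1 array each.

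**Figure D3:**
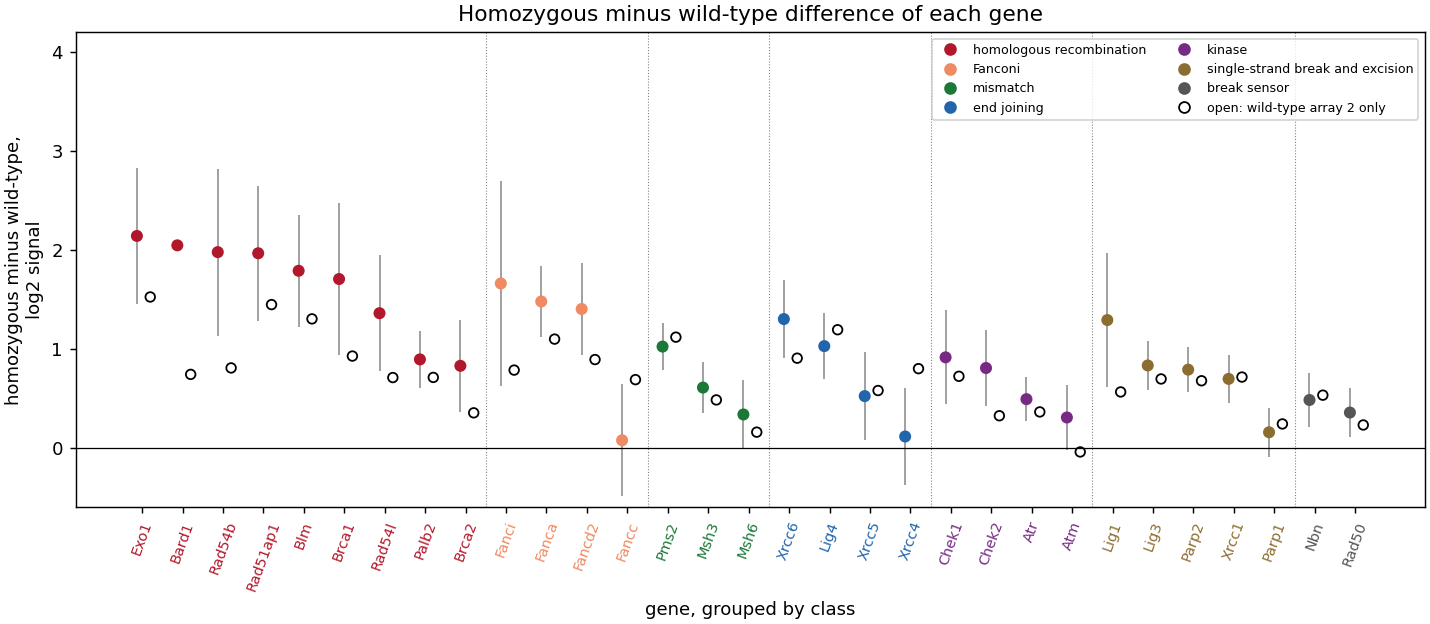
Homozygous minus wild-type difference in log2 signal of the 31 genes, grouped by class. Filled points use both wild-type arrays, with bars for the limma standard error (none for Bard1, which was not tested), and open points use wild-type array 2 only. The recombination and Fanconi genes have a median of 1.66 over filled points and 0.81 over open points, against 0.61 and 0.58 for mismatch, end-joining and kinase genes, and Atm is the only open point below 0.

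Likeness to the mitotic genes was measured as Pearson r with the mean of log2 Mki67 and log2 Top2a over the 6 arrays. The 2 arrays of a group share their genotype, so r is given as a description. An r of at least 0.9 was reached by 13 of 31 repair genes (41.9%), against 4.28% of all tested genes. They were 11 of 13 recombination and Fanconi genes, all but Bard1 (0.342) and Fancc (-0.42), but 1 of 11 mismatch, end-joining and kinase genes (Chek1, 0.91), 1 of 5 strand-break and excision genes (Lig1, 0.935) and 0 of 2 sensor subunits. The highest values were those of Brca2 (0.983), Blm (0.981), Rad54l (0.98), Rad51ap1 and Brca1 (both 0.979). Spearman's rho was 1 for Blm, 0.943 for Brca2 and Rad51ap1, 0.886 for Brca1 and 0.829 for Rad54l. The median r was 0.95 in the recombination and Fanconi genes and 0.765 in the mismatch, end-joining and kinase genes. Their median slopes were 0.74 and 0.314 log2 units per log2 unit of the mitotic mean. Parp1 (0.133), Xrcc4 (-0.138) and Xrcc5 (0.371) were among the least like the mitotic pair.

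**Figure D4:**
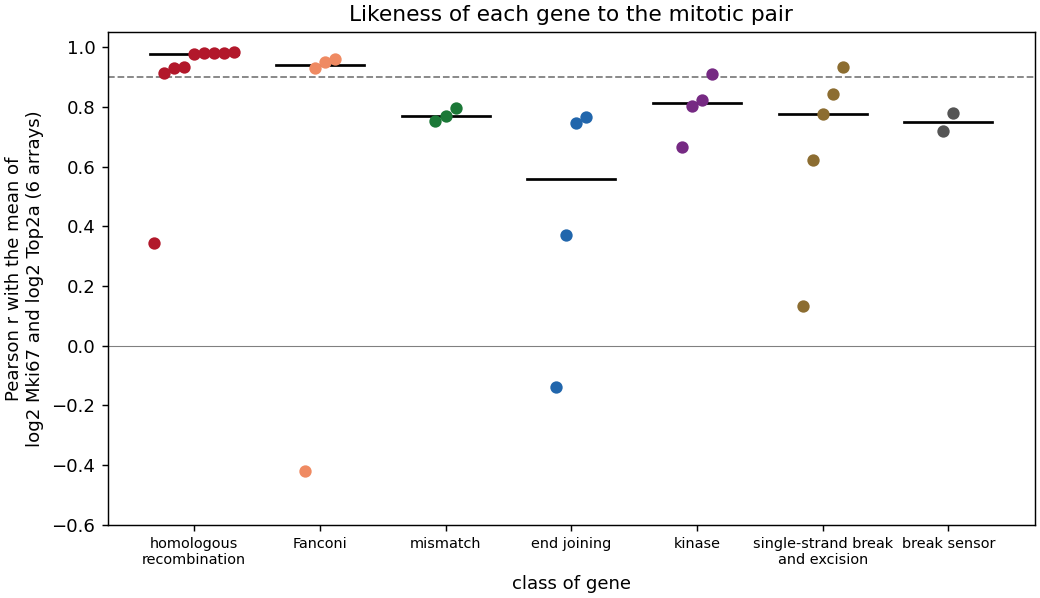
Pearson r of each gene with the mean of log2 Mki67 and log2 Top2a over the 6 arrays, by class. Points are genes, horizontal bars are class medians and the dashed line is at 0.9. Of the 13 points above the line, 11 belong to homologous recombination and the Fanconi pathway, and the other two are Chek1 and Lig1.

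Without the 2 arrays farthest from the median of the mitotic mean, wild-type array 1 and heterozygous array 2, r was 0.989 for Blm, 0.984 for Rad51ap1, 0.974 for Palb2, 0.878 for Brca2, 0.846 for Brca1 and 0.688 for Fanci. Over those 4 arrays genes of other classes also reached high values (Pms2 and Xrcc1 0.999, Parp2 0.99, Atr 0.988), with the homozygous arrays as 2 of the 4 points. After the group means were removed, 9 genes had r of at least 0.9, against 4.49% of all tested genes. All 9 were of homologous recombination or the Fanconi pathway, with 0.995 for Blm and 0.993 for Palb2. This r rests only on the difference within each pair. The mitotic genes differed by 0.36 (Mki67) and 0.05 (Top2a) within the homozygous pair, so it mainly reflects the wild-type and heterozygous pairs. In the same measure Pms2 was at 0.214, Lig4 at 0.265, Xrcc6 at 0.372 and Parp1 at -0.589. Pms2, Lig4 and Xrcc6 thus had both homozygous arrays above all others, but differences within pairs that were unlike those of the mitotic genes.

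A stricter rule also asked that the 2 arrays of every group differ in the direction of the mitotic mean. It was met by 3 genes (Brca2, Palb2 and Blm), against 1.49% of all tested genes. In the homozygous pair the mitotic mean itself differed little, with array 2 above array 1 by 0.36 for Mki67 and 0.05 for Top2a, whereas Brca1 was lower by 0.56 in array 2 and the median recombination or Fanconi gene by 0.31. With the signs of the wild-type and heterozygous pairs only, the rule removed no gene that had an r of at least 0.9. It thus gave the same 13 genes and 4.28% of all as r alone, and is not a further check. Measured against Top2a alone 13 genes reached an r of 0.9 (6.17% of all tested genes), and against Mki67 alone 8 (2.84%). With all probe sets of a gene averaged 6 did (2.43% of all), 5 of them recombination or Fanconi genes. Probe sets of a gene agreed in part: all 4 of Rad51ap1, 3 of 4 of Rad54l, 3 of 5 of Chek1, 2 of 4 of Brca1 and of Fancd2, and 1 of 2 of Fanca and of Fanci reached 0.9.

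A wider list of 103 repair and checkpoint genes, 92 of them with a value and 89 tested, was read in the same way. limma called 0 of the 89 in any contrast, and 20 had an unadjusted p under 0.05 in homozygous minus wild-type (22.5% against 28.9% of all genes). The median difference was 0.36, with 69 of 92 above 0. An r of at least 0.9 was found for 20 of 92 (21.7%): 5 of 18 genes of homologous recombination, 4 of 11 of the Fanconi pathway, 7 of 17 of checkpoint signalling, 2 of 9 of translesion synthesis, 1 of 7 of end joining, 1 of 14 of strand-break and excision repair, and 0 of 14 of nucleotide excision and 0 of 2 of mismatch repair. The order of the classes differed from that above: the median homozygous minus wild-type difference was 0.84 for checkpoint signalling, above 0.62 for homologous recombination, 0.51 for mismatch repair, 0.35 for the Fanconi pathway and 0.16 for end joining.

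The wider genes were named as the most and the least like the mitotic pair in their class. Fignl1, a recombination factor, gave signals of 849 and 2514 in the wild-type pair, 2217 and 555 in the heterozygous pair, and 6973 and 4097 in the homozygous pair (r = 0.966). Usp1, which removes ubiquitin from the Fanconi clamp, had 4177 and 7419, 6557 and 4772, and 9173 and 8945 (r = 0.968). Mdc1, a scaffold at damaged chromatin, had 362 and 584, 616 and 301, and 913 and 982 (r = 0.992). The others most like it were Rif1 of end-joining choice (r = 0.943), the glycosylase Neil3 (0.98), the translesion polymerase gene Polh (0.965), Rad23b of nucleotide excision (0.896) and Pms1 of mismatch repair (0.596). At the other end Slx4, the nuclease scaffold, had 213 and 148, 146 and 181, and 144 and 125 (r = -0.919), and Cetn2, a centrin that also serves damage recognition, had 2805 and 2604, 2806 and 2975, and 1463 and 1333 (r = -0.807). Cetn2 was lower in both homozygous arrays than in any other, by -0.95 ± 0.21 against wild-type (adjusted p = 0.0725). Fancl, the ubiquitin ligase of the Fanconi core complex, was likewise below, at 372 and 467 against 616 to 825 (difference -0.90 ± 0.25, adjusted p = 0.103). The least like in the other classes were Mlh3 (-0.502), Nhej1 (-0.188), Rnf168 (-0.22), Neil1 (-0.583) and Poli (-0.846).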

How the data were processed

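RNA from 6 samples was measured on 1-colour Affymetrix arrays of 45101 probe sets. The authors deposited 1 intensity per probe set and array. RMA is named per the submitters' processing notes, with no version given in those sources. The deposited intensities are linear, and in every array their mean without the lowest and highest 2% is 500, so they have the form of scaled MAS 5.0 signals rather than of RMA output. They were used without further normalization, as log2 values. Probe sets were named through the platform annotation and updated symbols of RefSeq (GRCm38.p6): 34958 name 1 gene, 932 several and 9211 none.

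Genes at or above the 40th percentile of mean log2 signal (a geometric mean of 60.2) were tested with limma 3.58.1 in R 4.3.3, in a single fit of 3 group means with 3 residual degrees of freedom, and p-values were adjusted by Benjamini-Hochberg over all tested genes. Two-sided exact permutation of 2 arrays against 2 cannot give a p below 0.333, so none was run. Background is the highest of 18 values of bacterial control probe sets, 24.5. Per-gene likeness, class medians and counts have no test. The fit was tested on simulated data. Alternatives were other scalings, filters and probe set rules, the replicate number as a block, a fit of the compared groups alone, spread estimated by group, and arrays left out. Python 3.11.15 and matplotlib 3.10.9 made the plots.

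The genes and lists were chosen with earlier results of these data known. By rule, values by array were given for the genes with the largest and smallest homozygous minus wild-type difference in each class and for Brca1, Brca2, Atm, Atr, Chek1 and Parp1, and for the most and least mitotic-like wider genes. The values by array of the other repair genes, and the choice of sequences shown, were added after the values were seen.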

Additional observations from a re-analysis of the deposited data

How the results depend on the processing

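Of the 179 values recomputed under alternatives, 139 stayed within the spread between replicates (counts within 1.5 times) and 40 did not. The 40 include a change of sign. The recombination and Fanconi median for heterozygous minus wild-type went from -0.14 to 0.60 with heterozygous array 2 left out. Many of the 139 are counts of called genes that were 0 in the main fit and stayed 0, so 139 is not a measure of stability. The number of genes called over the whole table was unstable. For homozygous minus wild-type it was 291, and became 666 with signals raised to background, 190 with all probe sets averaged, and 0 with no filter, with the compared groups alone, with the replicate block or without both arrays of lowest mitotic signal (chosen after seeing the data), and 0 to 2663 with 1 array left out. For homozygous minus heterozygous it was 446, and became 798, 281, 17, 9, 19 and 0 under the same settings, 293 with spread estimated by group, and 0 to 2841 with 1 array left out. For heterozygous minus wild-type it was 0 in all of them. Fits with arrays left out had 1 array in at least 1 group, so their counts of calls are a weak guide. Repair genes called stayed at 0 in every setting run except with homozygous array 2 left out, so the ranges are 0 to 3 and 0 to 6. The medians of the mismatch, end-joining and kinase genes became 0.92 (against wild-type) and 0.83 (against heterozygous) with arrays centred on their medians, which moves the median of all genes from -0.09 to 0.22 and from -0.08 to 0.14, and ranged over 0.55 to 0.91, 0.45 to 0.98 and, for heterozygous minus wild-type, -0.19 to 0.08 with 1 array left out. Those of the recombination and Fanconi genes were 0.81 and 0.84 without both low arrays and ranged over 0.81 to 2.27, 0.84 to 1.94 and -0.62 to 0.60. The strict mitotic rule was met by 13 genes after centring, by 13 with 2 pair signs (chosen after seeing the data) and by 3 to 14 with 1 array left out. The cause of these moves was not tested. The labels do not say that shared replicate numbers pair the samples. Deviations of same-numbered arrays correlated at -0.303 (wild-type and heterozygous), -0.10 (wild-type and homozygous) and 0.155 (heterozygous and homozygous). With 2 arrays a group these values cannot decide whether same-numbered arrays shared a batch. The replicate block left 0 repair genes called. Crossed numbers as a block, run for heterozygous minus wild-type alone, gave 0 calls. The number of arrays, 2 a group, limits the precision, and Bard1 was under the background of 24.5 in 5 of 6 arrays.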
